A study of Mus musculus with 9 samples.

Results

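The immunoglobulin heavy variable (Ighv) genes of the mouse were described in haematopoietic stem cells (HSCs), the cells of the bone marrow that give rise to every blood lineage. Every row of the gene count table whose symbol starts with Ighv was taken, which gave 53 genes of 23317 in all. RNA had been sequenced in 9 low-input libraries of 1500 sorted cells each, in 3 groups of 3. The mice were wild type, and the cells came from bone marrow. The groups were young HSC (2 to 4 months of age), old HSC (20 to 24 months) and old HSC with ABC294640 (20 to 24 months), an inhibitor of the lipid kinase SphK2 by the submitters' account. The ages were assigned to the groups by their wording. The sources used here give neither the markers of the sort nor how, how much and how long the inhibitor was applied. Whether each library came from its own animal is not labelled. The p-values therefore reflect the spread between samples alone, and that spread may be technical.

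The 53 genes all lie on the minus strand of chromosome 12 in GRCm38 and are annotated as functional V segments in GENCODE release 21, which lists 113 such Ighv genes and 72 Ighv pseudogenes. They belong to 13 V families, named by the number before the hyphen, and 25 of them are Ighv1 genes. Apart from Ighv1-16 and Ighv8-13, which are annotated without an intron, each consists of a short leader exon and a V exon. The coding length ran from 294 to 363 bases with a median of 351. They begin 0.156 to 2.56 Mb upstream of Ighm, the gene of the mu constant region (chr12:113418558-113422730).

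A heavy chain gene is assembled in B lineage cells by joining 1 V, 1 D and 1 J segment ahead of the constant regions, and each B cell clone keeps its own choice of V gene. The V genes in use therefore describe the clones whose RNA is in a sample, and plasma cells, which secrete antibody, hold far more of this RNA per cell than resting B cells. Unrearranged V genes can also give low levels of germline transcripts in B cell precursors. HSCs have not yet assembled a heavy chain gene. In bulk samples such as these, fewer cells of a type and less RNA per cell cannot be told apart.

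The sequences below are the last 300 bases of the spliced coding sequence, from GENCODE release 21 on GRCm38, of the genes on which the results turn. Ighv1-64 and Ighv1-53 held most counts in young HSC, Ighv14-2 and Ighv1-55 led in both old groups, and Ighv7-3 and Ighv10-3 had counts in untreated old HSC but not in the other groups. Capitals mark bases covered by at least 1 word of 31 bases found in no other annotated gene, and lower case marks bases that no such word covers.
Ighv1-64: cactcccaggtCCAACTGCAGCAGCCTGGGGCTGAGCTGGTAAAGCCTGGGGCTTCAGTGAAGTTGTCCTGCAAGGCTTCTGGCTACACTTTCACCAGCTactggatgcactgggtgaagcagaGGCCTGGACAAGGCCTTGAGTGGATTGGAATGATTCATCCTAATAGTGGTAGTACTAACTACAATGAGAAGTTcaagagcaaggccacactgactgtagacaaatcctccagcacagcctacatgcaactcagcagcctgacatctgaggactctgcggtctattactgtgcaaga
Ighv1-53: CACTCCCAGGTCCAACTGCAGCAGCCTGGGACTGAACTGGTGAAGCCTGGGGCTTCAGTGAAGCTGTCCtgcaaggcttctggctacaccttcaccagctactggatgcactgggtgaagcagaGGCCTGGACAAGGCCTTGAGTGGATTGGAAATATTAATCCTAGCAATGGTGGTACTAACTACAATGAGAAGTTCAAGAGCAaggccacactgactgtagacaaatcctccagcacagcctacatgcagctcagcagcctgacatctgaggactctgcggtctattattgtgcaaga
Ighv14-2: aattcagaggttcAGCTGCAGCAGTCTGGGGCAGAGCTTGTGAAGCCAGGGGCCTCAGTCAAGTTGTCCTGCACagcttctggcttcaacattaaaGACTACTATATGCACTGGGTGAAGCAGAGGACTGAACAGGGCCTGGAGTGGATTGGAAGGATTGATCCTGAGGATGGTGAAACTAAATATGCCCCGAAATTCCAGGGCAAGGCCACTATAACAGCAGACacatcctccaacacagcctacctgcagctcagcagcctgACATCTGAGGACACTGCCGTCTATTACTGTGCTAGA
Ighv1-55: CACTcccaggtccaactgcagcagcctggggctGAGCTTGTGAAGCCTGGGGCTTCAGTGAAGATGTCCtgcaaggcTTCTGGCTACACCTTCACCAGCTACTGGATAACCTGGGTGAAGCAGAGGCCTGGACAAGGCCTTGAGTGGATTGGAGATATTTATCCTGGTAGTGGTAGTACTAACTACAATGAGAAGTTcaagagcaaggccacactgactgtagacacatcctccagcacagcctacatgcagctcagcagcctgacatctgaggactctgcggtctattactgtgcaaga
Ighv7-3: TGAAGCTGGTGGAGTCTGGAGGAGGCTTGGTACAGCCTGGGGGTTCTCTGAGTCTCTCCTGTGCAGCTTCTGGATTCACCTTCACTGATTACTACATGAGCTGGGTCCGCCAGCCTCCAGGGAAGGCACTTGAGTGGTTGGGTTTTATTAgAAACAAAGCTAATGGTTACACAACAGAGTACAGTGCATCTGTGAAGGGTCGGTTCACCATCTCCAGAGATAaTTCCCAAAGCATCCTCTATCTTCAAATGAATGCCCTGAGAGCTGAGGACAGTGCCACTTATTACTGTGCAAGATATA
Ighv10-3: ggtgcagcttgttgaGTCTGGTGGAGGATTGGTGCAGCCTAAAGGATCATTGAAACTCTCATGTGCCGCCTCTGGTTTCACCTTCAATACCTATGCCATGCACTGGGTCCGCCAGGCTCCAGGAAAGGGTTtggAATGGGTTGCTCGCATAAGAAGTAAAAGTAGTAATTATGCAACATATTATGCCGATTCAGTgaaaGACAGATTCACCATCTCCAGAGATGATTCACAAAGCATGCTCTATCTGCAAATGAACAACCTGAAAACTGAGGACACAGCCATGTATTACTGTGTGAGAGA
Ighv1-64 lies at chr12:115507545-115508031, Ighv1-53 at chr12:115158403-115158835, Ighv14-2 at chr12:113994469-113994898, Ighv1-55 at chr12:115208095-115208591, Ighv7-3 at chr12:114153180-114153644 and Ighv10-3 at chr12:114523441-114523905. Over the whole coding sequence, such words cover 99.5% of the bases of Ighv7-3 and 42.7% of those of Ighv1-53.

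V genes of a family are near copies, which bears on how reads can be assigned to them. The coding sequences of Ighv1-64 and Ighv1-53 were identical at 95.4% of aligned bases, and those of Ighv1-64 and Ighv1-55 at 94.9%. Ighv14-2 and Ighv14-3 matched at 95.7%, Ighv10-1 and Ighv10-3 at 96.7%, and Ighv7-1 and Ighv7-3 at 88.7%. Over all pairs, the median identity was 83.5% within a family (61.5% to 96.7%) and 57.9% between families. At least 20% of the 31-base words of 38 of the 53 genes also occur in another gene, so their single-gene counts are uncertain. The highest share was 97.6%, in Ighv1-71.

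The summed counts of the V genes were small in every library. Of library totals of 16663559 to 23254225 counts, the Ighv genes held 298, 216 and 236 in young HSC, 719, 722 and 714 in old HSC, and 603, 669 and 680 in treated old HSC. These are 0.00118% ± 9.3e-05 (SD, n = 3) of all counts in young, 0.00395% ± 0.000445 in old and 0.00360% ± 0.000357 in treated old HSC. The young libraries lay below all 6 old libraries (two-sided exact permutation test, p = 0.1 against either old group, the smallest p that 3 libraries against 3 can give), while the treated and untreated old libraries overlapped (exact p = 0.2). This exact permutation test was used for 12 comparisons of 4 library measures, and p = 0.1 became 0.12 after Benjamini-Hochberg adjustment over the 12. No difference in these library measures could therefore pass a threshold of 0.05, and they are given as levels.

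Among the 53 genes counted, old HSC had the broadest set of V genes and young HSC the narrowest by most measures. GENCODE release 21 lists 113 functional Ighv genes, and use of those not counted cannot be seen here. Breadth, leading genes and shares therefore describe the 53 alone. At least 1 count was found for 27, 30 and 28 of the 53 genes in the young libraries, for 40, 39 and 38 in the old, and for 34, 29 and 33 in the treated old. The old libraries lay above both other groups (exact p = 0.1 each), and the treated and young libraries overlapped (exact p = 0.2). Counting only genes with at least 10 counts gave 5.67 ± 1.53 genes in young, 20 ± 1.73 in old and 15.3 ± 1.15 in treated old HSC (n = 3 each). With a count in at least 1 library of the group sufficing, the groups were nearly level, at 41 genes in young, 44 in old and 40 in treated old HSC, and the young and old groups shared 36 genes, 87.8% of the young list and 81.8% of the old. In every library of their group, 15 genes were detected in young, 33 in old and 22 in treated old HSC. All 22 of the treated group were among the 33 of the untreated old group, of which they made up 66.7%. The young and old groups shared 12 such genes, 80% of the young list and 36.4% of the old.

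The effective number of V genes, the number of equally used genes that would give the same Shannon diversity, was 9.52, 12.1 and 11.6 in the young libraries. It was 22.7, 21.7 and 22.3 in the old libraries and 18, 16.1 and 16.7 in the treated old libraries. No group overlapped another (exact p = 0.1 for each pair, adjusted 0.12). Conversely, the 10 most abundant genes of a library held 84.8% ± 2.65 of the Ighv counts in young, 68.1% ± 1.22 in old and 78.1% ± 1.78 in treated old HSC (n = 3 each), again without overlap.

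Because the young libraries had the fewest Ighv counts, every library was also thinned to 216 of them. The number of genes detected was then 27.3 ± 2.7 in young, 31.4 ± 0.253 in old and 25.8 ± 2.16 in treated old HSC (n = 3 each), so that the treated group lay 1.49 genes below the young group instead of 3.67 above it. The effective number after thinning was 10.9 ± 1.46, 20.7 ± 0.438 and 16.0 ± 0.889, in the same order of groups as before. Among the 31 genes with under 50% shared words, a choice made after seeing the data, the effective number was 9.63 ± 1.49 in young, 13.6 ± 0.169 in old and 9.05 ± 0.551 in treated old HSC. With these genes alone, which held 17.1%, 50.4% and 43.2% of the Ighv counts of the groups, the young and treated libraries overlapped in effective number.

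**Figure D1:**
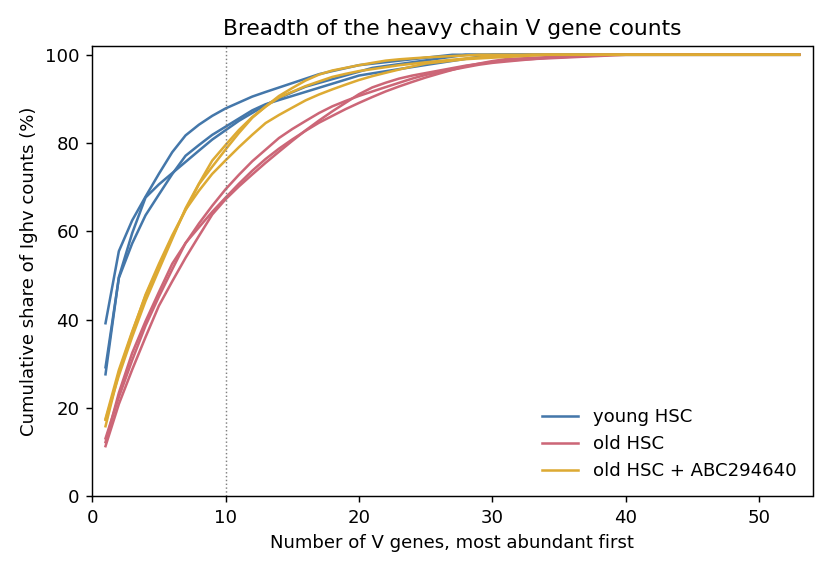
Cumulative share of the Ighv counts of a library (y axis, %) held by its most abundant V genes, ranked from the first to the last of the 53 (x axis), with 1 line per library and the dotted line at 10 genes. At 10 genes the young libraries lie between 82.9% and 87.8%, the treated old between 76.1% and 79.6%, and the old between 67.3% and 69.5%.

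In young HSC a pair of genes held about as many Ighv counts as all other V genes together. Ighv1-64 (ENSMUSG00000094088) had 117, 63 and 65 counts in the young libraries, and Ighv1-53 (ENSMUSG00000093894) had 49, 44 and 52. Together they made up 51.5% ± 3.45 of the Ighv counts (n = 3). Next by level came Ighv11-2, with 0.811 ± 0.108 CPM (counts scaled by library size, n = 3), and Ighv1-74, with 0.739 ± 0.323 CPM. Ighv11-2 is known for its use by B-1 cells, a self-renewing B cell subset. Ighv1-31, Ighv1-47, Ighv5-2 and Ighv1-42 followed with 0.285 to 0.430 CPM. From Ighv11-2 on, neighbours in this order had overlapping mean ± SD ranges. Ighv1-31 had 11, 17 and 0 counts, so its place rested on 2 of the 3 libraries. Ranked per kilobase of coding length, the first 7 genes were the same, and Ighv8-13 took the eighth place from Ighv1-42.

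In old HSC no gene held such a share. Ighv14-2 (ENSMUSG00000095583) led with 82, 88 and 94 counts, 12.2% ± 0.881 of the Ighv counts (n = 3). It was followed by Ighv1-55, Ighv1-64, Ighv14-3, Ighv10-1, Ighv1-78, Ighv7-1 and Ighv9-3, which ran from 3.76 ± 0.560 CPM down to 1.52 ± 0.525 CPM. The mean ± SD ranges of neighbours in this order overlapped, and the order per kilobase was the same. The 8 genes together held 59.5% ± 0.937 of the Ighv counts in old HSC, against 77.8% ± 4.88 for the leading 8 in young HSC.

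Ighv14-2 also led in treated old HSC, with 96, 117 and 118 counts and 16.9% ± 0.914 of the Ighv counts. Ighv1-55, Ighv14-3, Ighv1-64, Ighv1-78, Ighv7-1, Ighv1-82 and Ighv1-43 followed, from 4.10 ± 0.546 down to 1.75 ± 0.714 CPM. Of the leading 8 genes, 6 were common to both old groups, while Ighv1-64 was the only gene that either old group shared with the leading 8 of young HSC. The leading 8 of old HSC held 37.5% ± 4.33 of the Ighv counts in young HSC, most of it Ighv1-64. The leading 8 of young HSC held 20.5% ± 0.615 in untreated and 18.7% ± 1.73 in treated old HSC.

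**Figure D2:**
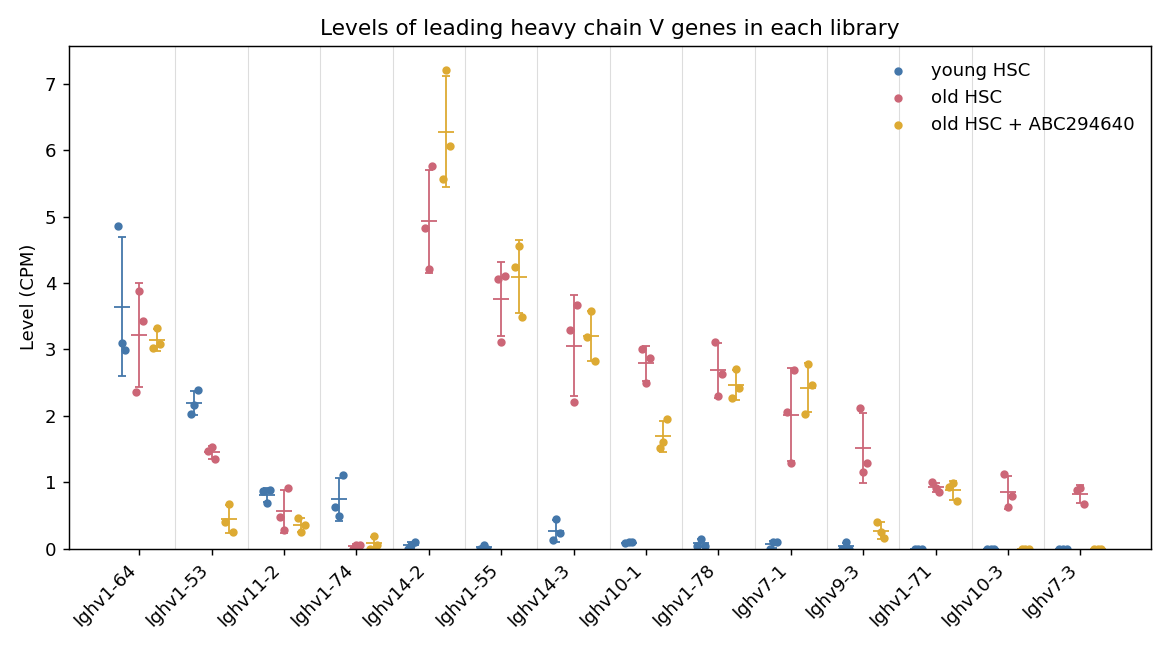
Level in CPM (y axis) of 14 V genes in each library, as points with the mean (horizontal bar) and SD (whiskers) of the 3 libraries of a group. Ighv1-64 is at 3.14 to 3.65 CPM on average in all 3 groups, Ighv1-53 is highest in young HSC, and Ighv14-2 and Ighv1-55 are near 0 in young HSC and at 3.76 CPM or more on average in both old groups.

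The first comparison asks which V genes differed between old and young HSC. Of the 53 genes, 20 passed the filter on low counts, 29 had counts but did not pass, and 4 (Ighv1-49, Ighv13-2, Ighv16-1 and Ighv2-7) had none in any library. The genes that passed include ones that did so through a single group, so their number called is given as a description. In old against young HSC, 16 of the 20 rose (19.6% of all 14227 genes tested rose) and 1 fell (19.8% of all fell), by edgeR's quasi-likelihood test at a Benjamini-Hochberg adjusted p under 0.05.

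Ighv14-2 had 0, 1 and 2 counts in the young libraries and 82, 88 and 94 in the old. The ratio of levels was 107-fold, with a 95% exact counting interval of 36.4 to 524, and the edgeR adjusted p was 3.84e-11. Its close relative Ighv14-3 had 3, 9 and 5 counts in young HSC and 56, 46 and 60 in old HSC, a log2 fold change of 3.52 ± 0.35 (SE; edgeR adjusted p = 1.07e-07). All old libraries lay above all young libraries for both of these genes. Ighv14-4, of the same family, did not pass the filter on low counts. It had 4, 2 and 0 counts in young HSC and 4, 1 and 4 in old HSC, with overlap.

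Ighv1-55 (ENSMUSG00000095589) had 0, 1 and 0 counts in young HSC and 69, 65 and 67 in old HSC. It rose with the largest ratio of the tested genes that had any count in young HSC, 245-fold with a counting interval of 43.6 to 9743 (edgeR adjusted p = 1.72e-10). Intervals of this kind cover counting error only, since amplified reads without molecular identifiers are not independent molecules. Another Ighv1 gene, Ighv1-78, rose from 1, 3 and 1 counts to 53, 48 and 43 (log2 fold change 5.03 ± 0.41, edgeR adjusted p = 5.08e-09).

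Ighv10-1 had 2 counts in every young library and 51, 52 and 47 in the old libraries (log2 fold change 4.84 ± 0.38, edgeR adjusted p = 2.92e-09). Ighv7-1, the V gene of the classical antibodies to phosphorylcholine, rose from 0, 2 and 2 counts to 35, 27 and 44 (4.89 ± 0.53, edgeR adjusted p = 3.61e-07). Ighv5-9 rose from 0, 1 and 0 to 16, 22 and 25 counts, and Ighv9-3 from 0, 2 and 0 to 36, 24 and 21. For all 4 genes the lowest old library was above the highest young library.

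Ighv1-71, Ighv10-3 and Ighv7-3 had no count in any young library and at least 10 in every old library. With the young group set to a floor of 3 counts in all, Ighv1-71 (17, 19 and 14 counts in old HSC) was at least 20.4-fold higher (edgeR adjusted p = 2.38e-06), Ighv10-3 (19, 13 and 13) at least 18.7-fold and Ighv7-3 (15, 19 and 11) at least 18.1-fold. The Ighv1-71 counts are the least certain of these, since nearly all of its words occur in other genes. The remaining rises were in Ighv1-82, Ighv1-43, Ighv1-42, Ighv2-2 and Ighv1-47, of which Ighv1-47 had the smallest change (log2 1.23 ± 0.44, edgeR adjusted p = 0.0337). The Ighv1-47 call was lost when any 1 of young libraries 2 and 3 or old libraries 1 and 3 was left out (adjusted p = 0.110 to 0.140).

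Ighv1-74 was the gene that fell. It had 15, 10 and 24 counts in young HSC and 0, 1 and 1 in old HSC, 20.1-fold higher in young HSC with a counting interval of 5.27 to 170 (edgeR adjusted p = 0.000312). The leading young genes did not pass the test. Ighv1-64 was at 3.65 ± 1.05 CPM in young and 3.22 ± 0.782 CPM in old HSC, with overlapping libraries (log2 fold change -0.18 ± 0.21, edgeR adjusted p = 0.534). Ighv1-53 was at 2.20 ± 0.184 against 1.45 ± 0.0941 CPM without overlap (-0.59 ± 0.27, edgeR adjusted p = 0.0844), and Ighv11-2 at 0.811 ± 0.108 against 0.559 ± 0.325 CPM with overlap (-0.58 ± 0.42, edgeR adjusted p = 0.286). Ighv1-64 made up 32% ± 6.27 of the Ighv counts in young HSC and 8.16% ± 2.83 in old HSC, while the summed level of all 53 genes was 11.3 ± 0.953 CPM in young and 40.2 ± 4.94 CPM in old HSC.

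The second comparison asks how V gene levels differed between treated and untreated old HSC. Of the 20 tested genes none rose (0.766% of all genes tested rose) and 4 fell (0.429% of all fell). DESeq2 gave no adjusted p for any Ighv gene here, and 7 of 49 had an unadjusted p under 0.05 with it, as had 6 of 20 in edgeR.

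Ighv7-3 and Ighv10-3 had no count in any treated library. Ighv7-3 was at 0.822 ± 0.129 CPM in untreated old HSC, at least 14.5-fold higher than in treated old HSC with that group at the same floor. Ighv10-3 was at 0.845 ± 0.252 CPM, at least 14.9-fold higher. Both were thus at 0 in the young and the treated libraries and had 11 to 19 counts in each untreated old library. They passed the filter on low counts through that group alone, so their levels are given as a description. The related Ighv7-1 and Ighv10-1, by contrast, had 26 or more counts in every treated library, and neither passed the test between the old groups. Ighv10-1 had 51, 52 and 47 counts in old HSC and 26, 26 and 38 in treated old HSC, without overlap in CPM (log2 fold change -0.71 ± 0.24, edgeR adjusted p = 0.257).

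Ighv9-3 fell from 36, 24 and 21 counts in old HSC to 7, 4 and 3 in treated old HSC (log2 fold change -2.48 ± 0.49, edgeR adjusted p = 0.00996). Ighv1-53 fell from 25, 32 and 22 counts to 7, 11 and 5 (-1.72 ± 0.35, edgeR adjusted p = 0.0146). No treated library reached the level of an untreated old library for either gene. The Ighv9-3 call was lost without old library 1 or treated library 2 or 3 (adjusted p = 0.0846 to 0.109), and the Ighv1-53 call without old library 1 or 2 or treated library 1 or 3 (0.0549 to 0.0907).

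The genes that led both old groups did not pass this test. Ighv14-2 was at 4.93 ± 0.777 CPM in old HSC and 6.28 ± 0.840 CPM in treated old HSC (log2 fold change 0.35 ± 0.18, edgeR adjusted p = 0.593). Ighv1-55 was at 3.76 ± 0.560 and 4.10 ± 0.546 CPM (0.13 ± 0.21, edgeR adjusted p = 0.933), and Ighv1-64 at 3.22 ± 0.782 and 3.14 ± 0.163 CPM (-0.05 ± 0.22, edgeR adjusted p = 0.982). Ighv1-82 was at 1.38 ± 0.255 and 2.19 ± 0.455 CPM without overlap between libraries, but did not pass after adjustment (0.66 ± 0.29, edgeR adjusted p = 0.478).

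The third comparison sets treated old HSC against young HSC. Of the 20 tested genes 14 rose (19.1% of all tested) and 3 fell (18.5% of all tested). It shares its young libraries with the first comparison and its treated libraries with the second. Ighv1-55 had 73, 74 and 68 counts in treated old HSC against 0, 1 and 0 in young HSC (269-fold, counting interval 47.8 to 10674; edgeR adjusted p = 1.19e-10). Ighv14-2 was 138-fold higher than in young HSC, with a counting interval of 46.8 to 673 (edgeR adjusted p = 9.70e-12).

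The 3 that fell were Ighv1-53, Ighv1-74 and Ighv11-2. Ighv1-53 was at 0.447 ± 0.213 CPM in treated old HSC, below every young library (log2 fold change -2.31 ± 0.33, edgeR adjusted p = 1.36e-05). Across the 3 groups its level was highest in young HSC, lower in old HSC and lowest in treated old HSC, with no overlap between any 2 groups. Ighv1-74 had 0, 3 and 1 counts in treated old HSC (-3.18 ± 0.69, edgeR adjusted p = 0.00110). Ighv11-2 was at 0.357 ± 0.109 CPM (-1.17 ± 0.45, edgeR adjusted p = 0.0481), and that call was lost when any 1 library other than old library 2 or 3 was left out (adjusted p = 0.0627 to 0.169). The Ighv9-3 rise over young HSC (edgeR adjusted p = 0.0198) was lost without young library 1 or 3 or treated library 1 (0.0679 to 0.0945).

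**Figure D3:**
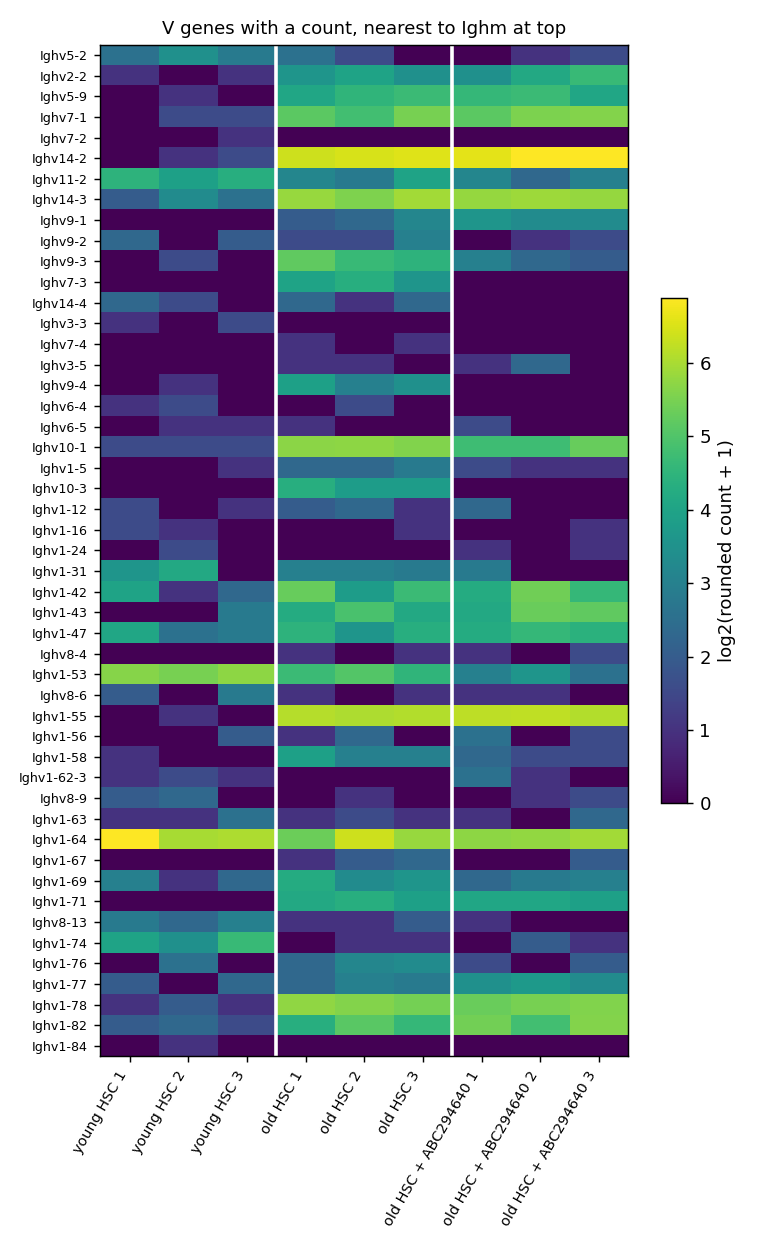
Rounded counts of the 49 V genes with any count, as log2(count + 1) in colour, with 1 column per library and genes ordered from the nearest to the farthest from Ighm. The young columns are dark for most of the genes that are bright in both old groups, Ighv14-2 and Ighv1-55 among them, and Ighv7-3, Ighv10-3 and Ighv9-4 are dark in every treated library.

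Some genes that did not pass the filter also separated the groups, and are given as counts without a test. They were chosen after their values were seen. Ighv9-4, at 90.9% identity with Ighv9-3, had 14, 7 and 10 counts in old HSC, 0, 1 and 0 in young HSC and none in treated old HSC. Ighv1-58 had 1, 0 and 0 counts in young, 14, 7 and 7 in old and 4, 2 and 2 in treated old HSC. Ighv9-1 had none in young HSC, 3, 4 and 8 in old HSC and 11, 9 and 9 in treated old HSC. Ighv8-13 was instead highest in young HSC, with 6, 4 and 7 counts against 1, 1 and 3 in old HSC and 1, 0 and 0 in treated old HSC. Over all libraries, 10 of the 53 genes had between 1 and 9 counts, for which these depths show little.

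Since counting can split reads among near copies, the counts were also summed by V family. The Ighv1 family, known as J558 and the largest in the mouse, held 77.5% ± 3.92 of the Ighv counts in young, 50.3% ± 3.17 in old and 53.1% ± 1.06 in treated old HSC (n = 3 each). The Ighv14 family held 3.62% ± 1.70, 20.2% ± 1.67 and 25.6% ± 0.691. The Ighv10 family held 0.815% ± 0.130, 9.04% ± 0.666 and 4.60% ± 0.884. In contrast, the share of Ighv11, represented by Ighv11-2 alone, was 7.14% ± 0.856 in young, 1.33% ± 0.676 in old and 0.985% ± 0.366 in treated old HSC. Ighv8 held 4.42% ± 0.970 in young HSC and under 1% in each library of both old groups.

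In a fit in which 1 summed row per family stood in for the genes, 8 families passed the filter on low counts. In old against young HSC 7 rose (19.5% of all rows tested rose) and none fell (19.8% of all fell). The Ighv14 sum rose by 4.34 ± 0.25 on the log2 scale (edgeR adjusted p = 1.91e-11), from 7, 12 and 7 counts to 142, 135 and 158. The Ighv10 sum rose by 5.22 ± 0.36 (edgeR adjusted p = 3.97e-10) and the Ighv1 sum by 1.19 ± 0.11 (edgeR adjusted p = 1.89e-08). The sum of Ighv1 thus rose although its share of the Ighv counts was lower. The Ighv11 sum did not pass (-0.58 ± 0.42, edgeR adjusted p = 0.286). By unadjusted p, 7 of the 8 families were under 0.05.

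Between treated and untreated old HSC no family rose (0.767% of all tested) and 2 fell (0.415% of all tested). The Ighv9 sum fell from 55, 37 and 46 counts to 18, 14 and 14 (log2 fold change -1.56 ± 0.31, edgeR adjusted p = 0.0120), and the Ighv10 sum from 70, 65 and 60 to 26, 26 and 38 (-1.09 ± 0.23, edgeR adjusted p = 0.0174). Leaving out old library 1 or treated library 2 ended both calls (adjusted p = 0.114 and 0.126 for Ighv9 and Ighv10 without the former, 0.0809 and 0.117 without the latter). Ighv9 was also lost without treated library 3 (0.0718), and Ighv10 without old library 3 (0.0503) or treated library 1 (0.121). The Ighv14 sum was at 8.16 ± 1.62 CPM in old HSC and 9.48 ± 1.13 CPM in treated old HSC and did not pass (0.22 ± 0.15, edgeR adjusted p = 0.750). Against young HSC, 7 families of the treated group rose (19.1% of all tested) and Ighv11 fell (18.5% of all tested; edgeR adjusted p = 0.0481).

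**Figure D4:**
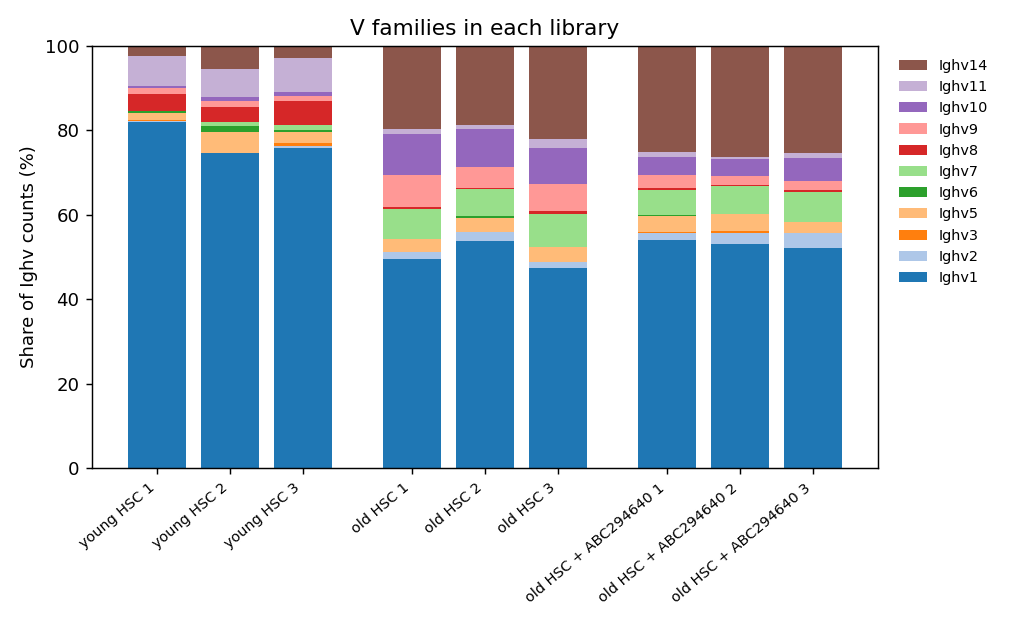
Share of the Ighv counts of each library (y axis, %) held by each of the 11 V families with any count, with 1 stacked bar per library. Ighv1 takes up 74.7% to 81.9% of the young bars and 47.5% to 54.2% of the old and treated old bars, and Ighv14 at the top 2.35% to 5.55% and 18.8% to 26.3%.

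The V genes in use lay farther from Ighm in young HSC. Weighted by counts, the V genes lay 1.71 ± 0.0549 Mb upstream of Ighm in young HSC, 1.33 ± 0.0519 Mb in old HSC and 1.34 ± 0.0284 Mb in treated old HSC (n = 3 each). The young libraries (1.65 to 1.76 Mb) lay above all old and treated old libraries (1.29 to 1.39 Mb). Ighv1-64 and Ighv1-53 lie 2.09 and 1.74 Mb upstream of Ighm, among the distal Ighv1 genes, while Ighv14-2 and Ighv14-3 lie 0.572 and 0.637 Mb upstream. Of the genes with counts in every untreated old library and in no other library, Ighv7-3 is 0.731 Mb and Ighv10-3 is 1.10 Mb from Ighm, and Ighv10-1, with counts in every library, lies between them at 1.06 Mb.

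**Figure D5:**
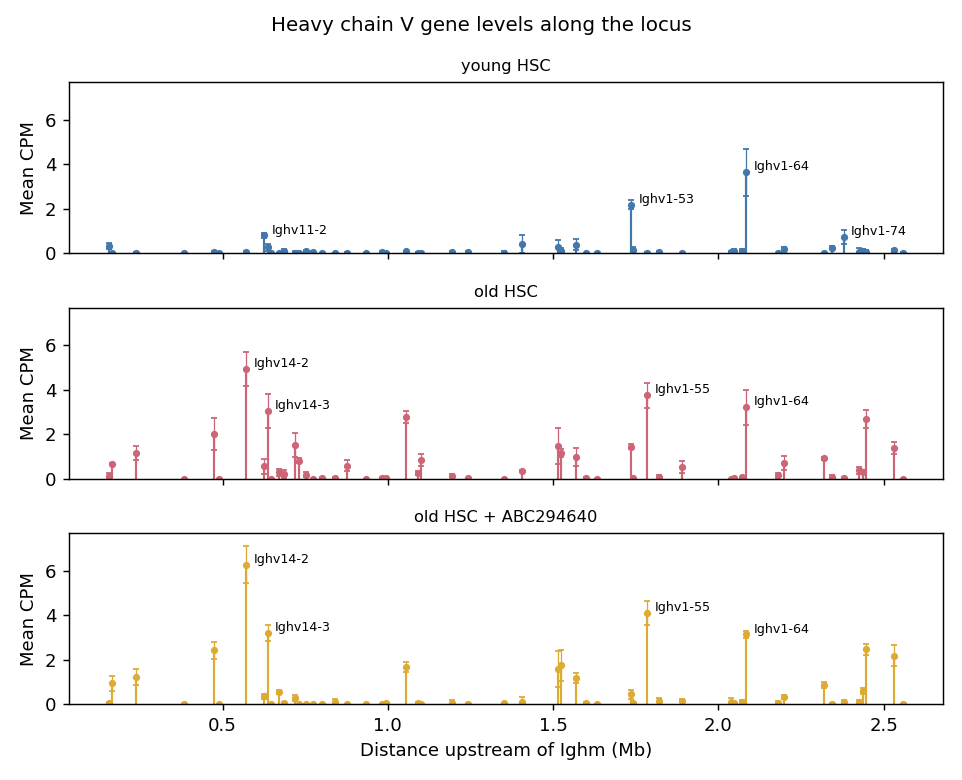
Mean level in CPM (y axis, whiskers SD over 3 libraries) of each of the 53 V genes against its distance upstream of Ighm in Mb (x axis), with 1 panel per group and the 4 highest genes named. In young HSC the high genes are Ighv1-64 and Ighv1-53 at 2.09 and 1.74 Mb, and in both old groups Ighv14-2 at 0.572 Mb is the highest.

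V gene use was compared between libraries pair by pair. The Bray-Curtis distance between the V gene shares of 2 libraries (0 for the same shares, 1 for no gene in common) was 0.264 to 0.265 within young HSC, 0.125 to 0.160 within old HSC and 0.104 to 0.126 within treated old HSC. Between old and treated old libraries it was 0.179 to 0.250, and no such pair was as close as the most distant pair within either old group, although all were closer than the pairs of young libraries. Between young and old libraries it was 0.655 to 0.721, and between young and treated old libraries 0.707 to 0.758. The young libraries hold the fewest Ighv counts, so their shares carry the largest counting error.

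The kappa light chain V genes, 98 rows of the same table, gave a like order of groups. Their effective number was 15.0 ± 0.573 in young, 45.8 ± 0.737 in old and 37.5 ± 0.133 in treated old HSC (n = 3 each), and they held 0.0119%, 0.0280% and 0.0275% of all counts.

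The heavy chain constant regions, which follow the V segment in the mature RNA and set the antibody class, changed in different directions. Of the 5 tested in old against young HSC, 4 rose (19.6% of all genes tested rose) and 1 fell (19.8% of all fell). The gene that fell was Ighm, the heavy chain that naive B cells carry, from 95.7 ± 6.71 to 60.6 ± 0.763 CPM (edgeR adjusted p = 9.63e-09). Ighg2c rose from 33.1 ± 2.06 to 161 ± 8.96 CPM, Igha, of mucosal antibodies, from 34.5 ± 2.09 to 110 ± 6.48 CPM, and Ighg2b from 19.7 ± 1.16 to 75.5 ± 4.14 CPM. Ighg3 had 3 counts over the young group and 6.03 ± 0.857 CPM in old HSC. Ighm made up 52.3% ± 0.388 of heavy constant region counts in young, 14.7% ± 0.591 in old and 17.2% ± 0.861 in treated old HSC. Of the 9 heavy constant genes listed, 6 were counted. Ighd, Ighg1 and Ighg2a were not, so these shares describe the 6 alone.

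Between the old groups, Ighg2b fell to 57.5 ± 2.56 CPM with treatment (edgeR adjusted p = 0.00167) and Igha to 85.4 ± 6.56 CPM (edgeR adjusted p = 0.00311). Ighm was at 59.4 ± 2.00 CPM in treated old HSC and did not pass (edgeR adjusted p = 0.949). Both tested light chain constant genes, Igkc and Iglc2, rose in old against young HSC (19.6% of all genes tested rose). Igkc went from 165 ± 11.7 to 533 ± 46.0 CPM.

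Levels of other cell types' markers moved beside these results. The summed level of 15 plasma cell markers was 627 to 668 CPM in the young libraries, 958 to 977 in the old and 944 to 964 in the treated old. Of 13 tested in old against young HSC 7 rose (19.6% of all genes tested rose) and none fell (19.8% of all fell). Among them, Jchain, the joining chain of secreted IgM and IgA, rose from 30.1 ± 0.265 to 67.5 ± 3.94 CPM and was the marker that fell between the old groups, to 55.7 ± 1.97 CPM (edgeR adjusted p = 0.0164; 0.0504 to 0.152 without old library 2 or 3 or treated library 1 or 2). Mzb1 rose from 0.877 ± 0.241 to 3.03 ± 0.135 CPM, and Xbp1, a secretory factor also active outside the B lineage, made up much of the sum at 228 ± 12.0 and 408 ± 5.33 CPM. Edem2, Fkbp11, Creld2 and Tnfrsf13b rose by less, 1.18- to 1.41-fold. The defining markers Tnfrsf17 and Slamf7 were near 0, at 0.116 to 0.272 CPM on average in every group, and Sdc1 was at 1.45 ± 0.223 CPM in young and 1.02 ± 0.101 CPM in old HSC without passing the test. Prdm1 (0.855 ± 0.408 and 0.504 ± 0.279 CPM) and Irf4 (0.886 ± 0.303 and 0.672 ± 0.351 CPM) were likewise lower on average in old HSC and did not pass.

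The sum of 17 mature B cell markers was 186 to 201 CPM in the young libraries, 200 to 222 in the old and 211 to 221 in the treated old. Most of the sum came from Cd37, at 98.9 ± 3.90 CPM in young and 125 ± 5.90 CPM in old HSC, and Cd79b, at 65.1 ± 3.43 and 60.8 ± 2.59 CPM. Of the 11 tested in old against young HSC, Cd37 rose (19.6% of all genes tested rose) and 4 fell (19.8% of all fell), namely Ebf1, Cd22, Fcer2a and Cr2, all under 4 CPM. The median log2 fold change of the 11 was -0.47, against -0.03 over all genes tested. Each of these 4 calls was lost without old library 3 or others of the young and old libraries (adjusted p = 0.0803 for Ebf1, 0.191 for Cd22, 0.0599 for Fcer2a and 0.138 for Cr2 without old library 3). Pax5, Blk and Fcmr were at or near 0, with at most 17 counts over any group. Of 9 tested pro-B and pre-B markers none rose and 2 fell, a share near the 19.8% of all genes that fell. They were Ebf1 and Rag2, a subunit of the recombinase (edgeR adjusted p = 0.0177; 0.0866 without old library 1 and 0.0521 without old library 2). The part of these markers in the V gene results was not tested.

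Genes that join, transcribe and diversify V segments were also counted. Of 11 tested genes of V(D)J joining, Xrcc5 rose and Rag2 and Xrcc4 fell in old against young HSC, no larger shares than the 19.6% and 19.8% of all genes that rose and fell. Of the V promoter factors, which bind the octamer motif of V promoters, Pou2f2 (Oct-2) fell from 5.94 ± 0.671 to 4.07 ± 0.127 CPM (edgeR adjusted p = 0.0175; 0.0789 without young library 2 and 0.0597 without old library 2), and Pou2f1 (Oct-1) was at 17.1 ± 0.424 and 14.8 ± 1.12 CPM. None of the 5 tested genes of class switching and hypermutation passed. Between treated and untreated old HSC no gene of these 3 lists passed, where 0.766% of all genes tested rose and 0.429% fell.

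The levels of 12 HSC markers were also taken, and all were detected in every group, which by itself does not establish the labelled cell type. Kit, the receptor of stem cell factor, was at 113 to 119 CPM on average. The sum of the 12 was 438 to 446 CPM in young, 368 to 373 in old and 374 to 386 in treated old libraries. In old against young HSC 6 fell (19.8% of all genes tested fell) and 1 rose (19.6% of all rose). Among those that fell, Ly6a went from 86.7 ± 1.5 to 49.1 ± 4.27 CPM (edgeR adjusted p = 1.68e-09). Procr went from 3.89 ± 0.203 to 2.54 ± 0.350 CPM (edgeR adjusted p = 0.00928). The 11 genes of a neutrophil list had sums of 30439 to 34296 CPM in young and 47090 to 49977 CPM in old libraries, and 9 of the 11 rose (19.6% of all genes tested rose). Most of the sum came from Elane, Mpo and Prtn3, at 11140, 11260 and 4476 CPM on average in young HSC. T and NK cell markers were tested for 8 of 16 genes. Nkg7, which held nearly all of their sum, rose from 1381 ± 81.8 to 1825 ± 86.6 CPM (edgeR adjusted p = 1.08e-06), and 2 fell, Cd8a from 5.08 ± 0.457 to 2.48 ± 0.453 CPM among them (19.6% of all genes tested rose and 19.8% fell). Cd3d was at 5.53 ± 0.394 and 4.37 ± 0.472 CPM, and Cd3e near 0.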

How the data were processed

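The deposited values are estimated counts of reads per gene, in part fractional and thus of the expected count kind, for 9 polyadenylated RNA libraries amplified by 12 cycles of PCR. Of the non-zero deposited values 56.0% were whole. Per the submitters' processing notes the authors used the build mm10 with edgeR 3.24.3, HTSeq 0.10.0, STAR 2.6.1d and Trim Galore 0.6.2. What gave fractional values, and whether strand was used, is not given here. All 23317 gene identifiers matched GENCODE release 21 (GRCm38), which gave coordinates and sequences.

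Expected counts were rounded for tests and CPM. edgeR 4.0.16 in R 4.3.3 was used with TMM, its filter by group, and 1 quasi-likelihood fit across the 9 libraries by group, for 14227 genes (14215 rows with family sums). Genes were called at 0.05 after Benjamini-Hochberg adjustment over all rows tested. Shares, effective numbers and top 10 shares used the deposited values, thinning the mean of 100 draws of 216 counts. Groups without counts were set to a floor of 3 counts. Groups with 1 to 3 counts have ratios with exact 95% intervals, and both cover counting error only. Library measures were compared by exact permutation tests in scipy 1.17.1. The scripts were tested on simulated data.

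Libraries of a group differed by more than sampling noise over all genes (chi-square per degree of freedom 2.23 to 8.36). Over the Ighv genes the values were lower, 1.13 to 3.73, with 1.14, 1.29 and 1.42 for the pairs of treated libraries. Each library was treated as 1 sample, but these values cannot show whether the libraries of a group are independent. Named by rule were the 8 highest genes of each group. Also named were the 6 largest rises and falls per comparison, among called genes with at least 1 CPM. To these came up to 4 genes with at least 10 counts in every library of a group and 0 in another. The counted heavy constant genes were named except Ighe, which had at most 4 counts over any group. Genes of the other lists were named in part by smallest p and in part after their values were seen. The members, lists and rule were chosen with earlier results of these data known. The alternatives were DESeq2 1.42.0, RLE size factors, a stricter filter (1 CPM in 3 libraries) or none, a replicate block, fits of only 2 groups, a 1.5-fold threshold, leaving out each library, thinning, inverse Simpson, and other detection minimums.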

Additional observations from a re-analysis of the deposited data

How the results depend on the processing

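The direction of every library measure held without any 1 library, with 3 exceptions under other settings. For treated old against young HSC, thinning turned the difference in genes detected from 3.67 to -1.49. Among the 31 genes with under 50% shared words, chosen after seeing the data, the difference in effective number turned from 5.90 to -0.59 and that in top 10 share from -6.76 to 4.44 percentage points. The causes were not tested. For treated against untreated old HSC, the 4 genes called became 2 under the stricter filter, which tested 14 V genes, and 2 under the 1.5-fold threshold, and the 2 families called became 0 under that threshold. DESeq2 gave no adjusted p for any V gene there (unadjusted p = 8.02e-05 for Ighv9-3 and 0.00012 for Ighv1-53) and none for 10 of 11 families. Leaving out each library gave 17 to 20 genes for old against young HSC, 2 to 5 for treated against untreated old HSC (2 without old library 1) and 15 to 19 for treated old against young HSC. For families the ranges were 7 to 8, 0 to 2 and 7 to 9. Differences without each library ran, for effective number, from 10.4 to 11.7, -5.80 to -4.86 and 5.14 to 6.41. Over the named V genes, 837 values with an adjusted p under an alternative stayed on the same side of the threshold, and 30 lost the call. Direction was compared only where a fit called the gene. Pairing of the libraries by replicate number was not shown, and such small correlations cannot exclude it. The correlation of deviations from group means was -0.0808 to 0.132 for the same number and -0.0964 to 0.0723 for others. Between young and old libraries, pairs of the same number (0.0628 to 0.132) lay above the others (-0.0964 to 0.0351). The replicate block gave 17, 4 and 17 genes and 7, 2 and 8 families, as without it. Depth limits the 10 of the 53 genes that had 1 to 9 counts in all, and shared sequence the 38 with at least 20% shared words.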

Other observations

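The D and J segments of the same locus are short, and few of their counts can be expected at this depth. They were looked at after the values were seen. The 4 Ighj segments in the table had between 0 and 26 counts in each library. Ighj4 had 1, 1 and 0 counts in young HSC, 10, 12 and 24 in old HSC and 26, 23 and 23 in treated old HSC. Ighj3 had 0, 2 and 0 counts in young HSC, 7, 11 and 5 in old HSC and 7, 10 and 13 in treated old HSC. Ighj1 had 7, 6 and 4 counts in young HSC, 8, 15 and 11 in old HSC and 6, 10 and 13 in treated old HSC, so that young and treated libraries overlapped. Ighj2 had 2 counts in 1 young library and none elsewhere. None of the 16 Ighd segments in the table had a count in any library.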
